A study of Mus musculus with 19 samples.

Results

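The regions described here are H3K27ac peaks of mouse hippocampal neurons that were present in every deposited H3K27ac list, with and without neuronal activation. Members were chosen by overlap between H3K27ac lists: they are the peaks of the second untreated list that were narrower than 5000 bp and overlapped, by at least 1 bp, a peak of the first untreated list and a peak of both lists from activated neurons. The rule kept 2184 of the 49701 peaks of that list, of which 48356 were narrower than 5000 bp. They are called constant peaks below for presence in the 4 lists alone, since the lists were called separately and presence does not measure equal signal. Neurons came from embryonic day 17 hippocampus and were cultured for 10 days. The activated group, labelled Bic/4AP, had bicuculline, a blocker of GABA-A receptors, with 4-aminopyridine, a potassium channel blocker, for 3 h, and has 2 H3K27ac libraries, 3 RNA libraries and 1 bisulfite library. The silenced group had tetrodotoxin (TTX), a sodium channel blocker, with 3 RNA libraries and 1 bisulfite library and no H3K27ac library. The untreated group has 2 H3K27ac, 2 H3K4me1, 3 RNA libraries and 1 bisulfite library. ICR mice gave the RNA and the chromatin, and C57BL/6 mice the DNA for bisulfite sequencing, so methylation was measured in another strain. No label states separate cultures for libraries of 1 group, and p-values here measure only library spread, which may be technical.

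H3K27ac is acetylation of lysine 27 of histone H3, written by the acetyltransferases CBP and p300 and found at active promoters and enhancers. H3K4me1 is monomethylation of lysine 4 of the same histone and is typical of enhancers rather than of active gene starts. CpG methylation is low at most CpG-rich promoters and is reduced, but rarely absent, at enhancers in use. In neurons, activity switches on rapid genes such as Fos through promoters and distal enhancers that are ready beforehand.

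The 4 lists differ strongly in length. Those of activated neurons hold 7721 peaks in the first library and 55035 in the second, and those of untreated neurons 4846 and 49701. A constant peak was overlapped by 30.9% and 4.18% of the peaks in the Bic/4AP lists and by 53.1% and 4.39% of the peaks in the untreated lists. The shorter, first lists therefore set most of the membership, and leaving out the first untreated list as a requirement gave 5407 peaks in place of 2184. RNA libraries held 4.33 to 4.58 M recovered reads with Bic/4AP, 9.67 to 12.6 M with TTX and 5.63 to 9.96 M untreated. The number of reads behind each methylation value is unknown.

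Promoter windows of 6 genes whose listed start lies in a constant peak show the sequence these peaks lie on. Each is a RefSeq window of GRCm38.p6, from 250 bases before to 50 bases after the start, 5′ to 3′ on the gene's strand, and capitals mark matches to the motifs searched. Brd2 was taken for the highest-ranked peak, Rab1a for methylation of 0 in untreated neurons, Fbxo33 and Fndc9 for RNA that rose with Bic/4AP, Plekhg5 for RNA that fell and Meg3 for RNA that fell with TTX. They lie at chr17:34122558-34122857 on the minus strand (Brd2), chr11:20201162-20201461 on the plus strand (Rab1a), chr12:59219434-59219733 on the minus strand (Fbxo33), and on the plus strand at chr11:46235307-46235606 (Fndc9), chr4:152086592-152086891 (Plekhg5) and chr12:109540746-109541045 (Meg3).
Brd2: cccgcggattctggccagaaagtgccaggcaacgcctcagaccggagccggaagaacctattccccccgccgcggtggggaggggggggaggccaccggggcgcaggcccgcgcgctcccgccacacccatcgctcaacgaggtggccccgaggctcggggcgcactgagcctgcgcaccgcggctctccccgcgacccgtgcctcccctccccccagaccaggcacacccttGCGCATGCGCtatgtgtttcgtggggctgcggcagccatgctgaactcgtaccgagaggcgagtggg
Rab1a: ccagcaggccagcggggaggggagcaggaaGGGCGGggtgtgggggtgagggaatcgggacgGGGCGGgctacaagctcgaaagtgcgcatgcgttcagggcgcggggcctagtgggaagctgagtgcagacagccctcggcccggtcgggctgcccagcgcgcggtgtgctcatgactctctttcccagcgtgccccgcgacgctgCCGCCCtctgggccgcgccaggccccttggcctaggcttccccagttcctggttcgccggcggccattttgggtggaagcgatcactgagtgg
Fbxo33: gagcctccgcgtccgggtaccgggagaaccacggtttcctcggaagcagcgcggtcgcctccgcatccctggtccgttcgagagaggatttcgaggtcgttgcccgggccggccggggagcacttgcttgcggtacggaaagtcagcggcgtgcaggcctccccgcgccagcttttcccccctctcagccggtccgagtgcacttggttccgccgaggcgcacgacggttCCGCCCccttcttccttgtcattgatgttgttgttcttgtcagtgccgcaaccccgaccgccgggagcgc
Fndc9: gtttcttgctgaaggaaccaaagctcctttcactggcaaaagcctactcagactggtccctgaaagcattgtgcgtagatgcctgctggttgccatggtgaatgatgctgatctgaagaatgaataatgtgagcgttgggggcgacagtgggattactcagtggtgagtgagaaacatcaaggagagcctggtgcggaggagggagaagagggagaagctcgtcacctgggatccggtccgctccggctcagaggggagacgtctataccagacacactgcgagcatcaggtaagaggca
Plekhg5: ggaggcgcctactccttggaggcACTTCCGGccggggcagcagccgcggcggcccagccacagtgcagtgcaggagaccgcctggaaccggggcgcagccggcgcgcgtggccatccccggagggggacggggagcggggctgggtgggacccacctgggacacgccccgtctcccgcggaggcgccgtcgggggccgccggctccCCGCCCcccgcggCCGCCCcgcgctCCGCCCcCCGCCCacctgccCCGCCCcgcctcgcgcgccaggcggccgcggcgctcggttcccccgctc
Meg3: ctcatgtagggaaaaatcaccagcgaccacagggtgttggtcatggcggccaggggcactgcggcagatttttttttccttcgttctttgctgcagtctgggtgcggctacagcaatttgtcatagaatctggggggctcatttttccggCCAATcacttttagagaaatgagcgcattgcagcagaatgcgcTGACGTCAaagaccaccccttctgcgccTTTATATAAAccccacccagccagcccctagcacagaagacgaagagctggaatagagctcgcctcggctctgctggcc
These windows hold 32 CpGs in Brd2, 27 in Rab1a, 36 in Fbxo33, 10 in Fndc9, 44 in Plekhg5 and 13 in Meg3. The capitals are an NRF1 match in Brd2, 3 GC boxes in Rab1a, 1 GC box in Fbxo33, 5 GC boxes and 1 ETS match in Plekhg5, and 1 CRE, 1 CCAAT box and 2 overlapping TATA boxes in Meg3, while no searched motif is in the Fndc9 window.

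The constant peaks were wider than the rest of the list. Widths, scores and overlaps of H3K27ac are given as description, since H3K27ac lists chose the members. Their median width was 1955 bp, with an interquartile range of 1152 to 3025 bp and a range of 323 to 4997 bp, against 871 bp in the other peaks narrower than 5000 bp. The authors' score per peak had a median of 114 and 1228 at the constant peaks in the Bic/4AP lists and of 79.2 and 744 in the untreated lists. The scores come from lists of different lengths, so their differences do not measure a change between treatments. The highest-ranked peak, by its lowest percentile of score over the 4 lists, covers the start of Brd2, an acetyl-lysine reader of the BET family, and of H2-DMa, an antigen-loading gene, at chr17:34119486-34123037 (mm10, start as deposited). It had scores of 419.46 and 3100 in the Bic/4AP lists and 436.62 and 3100 in the untreated lists. The next covers Mrps18b, a mitochondrial ribosome gene, and Ppp1r10, a protein phosphatase 1 regulator, at chr17:35915896-35920762. After these ranks a peak over Caly, which encodes a neuronal vesicle protein, at chr7:140079288-140082917. Of the other 5 of the 8 highest, 3 cover a start (Cox20, the pair of 1600020E01Rik and Pcbp1, and Gm51806). Of the rest, 1 lies 3014 bp from Fbxl16 and 1 lies 35868 bp from Cdca7l. The peak at Gm51806 also holds an end of Ank3, which has no listed start. Whether that is its upstream or downstream end was not determined. At the width limit, the last peaks kept were 4991 and 4997 bp wide, 61555 bp from Gm31026 and inside a gene nearest to Snx7. The first peaks left out were 5000 bp wide at Lrrc7 and 5008 bp wide at Slc44a1.

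Most constant peaks lay on or near a gene start. Of 2184 peaks, 1120 (51.3%) held a listed start and a further 190 (8.70%) held an end of a protein-coding gene that has no listed start. Inside genes, without holding a listed start or such an end, lay 578 (26.5%), of which 135 were within 2500 bp of a listed start. Between genes lay 296 (13.6%). In the other narrower peaks a listed start was in 5.95%, and in the 300 peaks of 5000 bp or wider that are in all 4 lists it was in 39.0%. Of the constant peaks without a start or such an end, 240 lay within 2500 bp of a listed start (183 peaks) or of an end of a protein-coding gene with none listed. The other 634 are called distal here, and the 600 of them with a listed start on their chromosome lay at a median of 33251 bp from it. Of these 495 were over 10000 bp and 115 over 100000 bp from the nearest start. Of the 634 distal peaks 398 lay within a gene. The starts in constant peaks belong to 1319 genes, and 209 peaks held starts of more than 1 gene symbol, as at Brd2 and H2-DMa. Constant peaks made up between 3.37% (chromosome 1) and 5.99% (chromosome 11) of the list's peaks per chromosome.

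**Figure D1:**
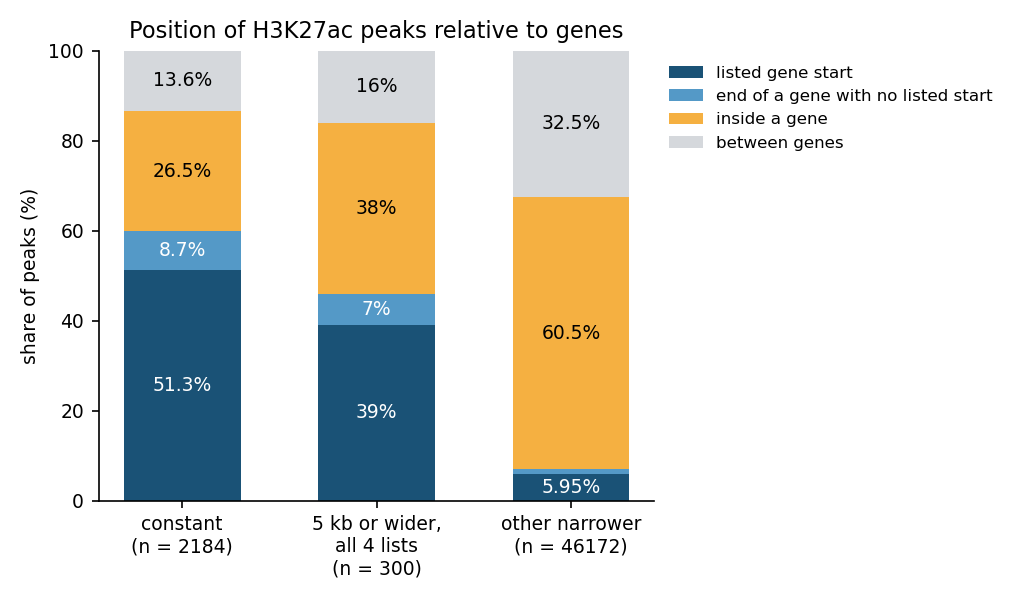
Share of peaks (%) by position for the 2184 constant peaks, the 300 peaks of 5000 bp or wider in all 4 lists and the 46172 other narrower peaks of the same list. Listed starts take 51.3% of the constant peaks and 5.95% of the other narrower peaks.

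H3K4me1, which the rule did not use, overlapped constant peaks at a share near that of the whole list. The 2 untreated H3K4me1 lists hold 21512 and 19102 peaks, with median widths of 198 and 190 bp. Both lists overlapped 117 of the 2184 constant peaks (5.36%), 4.87% of the other narrower peaks and 5.71% of all peaks of the list. Among constant peaks with a start the share was 1.61% (18 of 1120), and among distal ones 14.4% (91 of 634), against 5.37% in distal peaks of the rest of the list. The median width of the distal peaks was 2721 bp in the constant set and 870 bp in the rest, and a wider peak has more chance to overlap by 1 bp. The part of width in that difference was not tested. At the peaks of 5000 bp or wider in all 4 lists the share was 31.3%. When either list counted, 34.9% of distal constant peaks and 17.4% of distal other peaks overlapped.

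The gene starts in constant peaks lay in CpG-rich sequence. The 1561 windows at these starts had a median of 24 CpGs (interquartile range 15 to 32) and 62.7% G+C, against 7 CpGs and 52.7% over all 32851 RefSeq windows. Windows in other peaks of the list had a median of 19 CpGs, those in the wide peaks of all 4 lists 13, and those in no peak 6. The ratio of observed to chance CpG frequency was 0.833 in constant peaks and 0.384 over all windows. Motifs were searched on both strands, and shares are of genes with at least 1 match, given for genes starting in constant peaks, then in other peaks of the list, then for all genes. The CRE (TGACGTCA), bound by CREB, was in 5.61% of genes in constant peaks (74 genes), 2.47% in other peaks and 2.03% of all genes. The GC box (GGGCGG), bound by SP factors, was in 65.7%, 57.7% and 38.2%, and the NRF1 motif (the palindrome in capitals in the Brd2 window) in 3.03%, 1.79% and 1.07%. A MEF2 motif, which always contains the TATA box read on the other strand, was in 0.758% (10 genes), 0.192% and 0.181%. The ETS motif (CCGGAAGT) was in 7.28%, 7.08% and 4.31% and the E-box (CACGTG) in 11.0%, 10.5% and 8.09%, so for both of these the other peaks were close to the constant ones. The TATA box (TATAAA) was in 6.97%, 8.36% and 15.7%, the CCAAT box (CCAAT) in 32.3%, 34.8% and 41.1%, and the AP-1 motif (TGANTCA), bound by FOS and JUN, in 4.09%, 5.51% and 8.97%. A CTCF motif was in 0%, 0.0640% and 0.0148%. No share was adjusted for base composition, and a match is a description of letters and not of binding.

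CpG methylation, given as the fraction of methylated calls per CpG, was low in constant peaks at starts and intermediate in distal ones. Over the 2164 constant peaks with 5 or more listed CpGs in every library, the mean fraction was 0.186 with Bic/4AP, 0.188 with TTX and 0.187 untreated, and the medians were 0.0404, 0.0420 and 0.0414 in the same order. The bisulfite libraries had overall means of 0.742 with Bic/4AP, 0.744 with TTX and 0.742 untreated, over 16975126, 16734671 and 16522674 CpGs. Peaks with a listed start averaged 0.0550 with Bic/4AP, 0.0561 with TTX and 0.0556 untreated. Distal constant peaks averaged 0.498, 0.501 and 0.50 under the same treatments. The spread among peaks was far wider than any of these differences, with an SD over peaks of 0.262 with Bic/4AP, 0.263 with TTX and 0.263 untreated. With 1 library per treatment there is no test.

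Untreated values show how the constant peaks divide. Under a fraction of 0.1 lay 1394 of 2164 (64.4%), between 0.1 and 0.5 lay 371, and at 0.5 or higher lay 399 (18.4%), of which 360 were distal. Among peaks with a start, 86.4% of the constant peaks and 72.5% of the other narrower peaks were under 0.1, and the means were 0.0556 and 0.133. Among distal peaks these shares were 12.7% and 2.55%, with means of 0.50 and 0.645. Single CpGs at constant starts were mostly at the low end, 93.9% at 0.2 or lower and 83.9% at 0, while in distal constant peaks 45.4% were at 0.2 or lower and 27.1% at 0.8 or higher. CpG density was a median of 53.9 per kb at constant starts and 10.7 in distal constant peaks, against 7.89 in distal peaks of the rest, so distal values rest on fewer CpGs. Of the distal constant peaks with both H3K4me1 lists, 0 of 90 were under 0.1 (mean 0.560), against 77 of 394 (19.5%, mean 0.466) of those with neither.

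Methylation was lowest near the centre of the constant peaks in each library. In the 250 bp bin just left of the centre, at a distance of 125 bp, the mean was 0.0151 untreated in peaks with a start, 0.238 in distal constant peaks and 0.353 in the other narrower peaks. Flanks from 1000 to 5000 bp away had means of 0.768 with Bic/4AP, 0.769 with TTX and 0.768 untreated around all constant peaks.

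**Figure D2:**
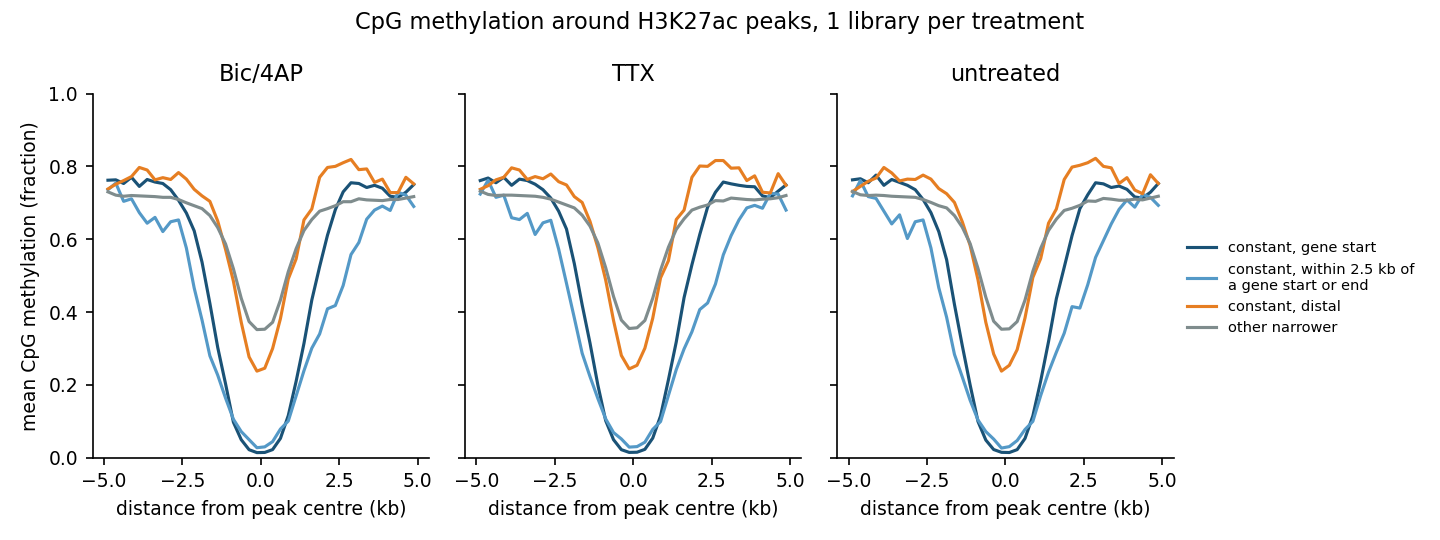
Mean CpG methylation (fraction) against distance from the peak centre (kb, 250 bp bins) for constant peaks with a gene start, within 2500 bp of a start or of an end of a gene with none listed, and distal, and for the other narrower peaks, 1 library per panel. Untreated, the line of constant starts reaches 0.0151 near the centre and the distal line 0.238, and the 3 panels have the same shape.

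Named peaks show both ends of that range. The 5 lowest by untreated fraction were at 0 there. One lay at the start of Rab1a, a GTPase of transport from the endoplasmic reticulum to the Golgi (chr11:20201405-20201952), with 0.00976 with Bic/4AP, 0.0108 with TTX and 0 untreated over 55 to 56 CpGs. The peak at Gmpr2 and Nedd8 had 0.00310, 0.00705 and 0, that at Zcwpw1 0.00773, 0.00683 and 0, and that beside Aftph 0.0106, 0.00952 and 0, each in the same order. A peak 109 bp from Gm13421 was at 0 in all 3 libraries. The highest lay inside genes: 1 nearest to Gm31771 (chr1:97885371-97888473) had 0.864 with Bic/4AP, 0.877 with TTX and 0.958 untreated. A peak inside a gene nearest to the start of Apba2, a neuronal adaptor gene, had 0.921 with Bic/4AP, 0.916 with TTX and 0.904 untreated. Peaks nearest to Nubpl, Lims1 and Gm39313 were at 0.867, 0.877 and 0.902 with Bic/4AP, at 0.937, 0.886 and 0.922 with TTX and at 0.920, 0.902 and 0.898 untreated. These 5 were 22630 to 110124 bp from the nearest start, and they rest on 10 to 27 CpGs each.

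Differences in methylation between treatments were small in nearly all constant peaks. Bic/4AP minus untreated averaged -0.0010, and the fraction was higher by over 0.1 in 12 peaks and lower by over 0.1 in 18. TTX minus untreated averaged 0.0005, with 17 peaks higher and 11 lower by over 0.1. Of the 31912 other narrower peaks with 5 or more CpGs, 1154 were higher and 1260 lower with Bic/4AP, and 1223 and 1223 with TTX. Those peaks hold fewer CpGs, a median of 9 over the whole set against 63 in the constant peaks. The part of CpG number in this contrast was not tested. Distal constant peaks gave 12 higher and 16 lower with Bic/4AP, and 16 and 10 with TTX. Peaks with a start gave 0 higher and 1 lower with Bic/4AP, and 1 higher and 0 lower with TTX. With 10 or more CpGs in each library, the largest upward difference with Bic/4AP was at a peak nearest to Gm36904, with 0.316 with Bic/4AP, 0.330 with TTX and 0.153 untreated. Over the 12 CpGs listed in all libraries the values there were 0.257, 0.238 and 0.181. The largest downward difference was inside Dlg2, a postsynaptic scaffold gene (chr7:92188531-92191515, in both H3K4me1 lists), with 0.327 with Bic/4AP, 0.430 with TTX and 0.511 untreated over 10 or 11 CpGs, or 0.327, 0.473 and 0.462 over the 10 shared CpGs. The next 3 higher with Bic/4AP were nearest to Gm33470, Oip5os1 and Gm34557 (0.799, 0.585 and 0.787 with Bic/4AP, against 0.677, 0.475 and 0.680 untreated). The next 3 lower were nearest to Golph3, Gm31385 and Zfp385b (0.422, 0.117 and 0.296 with Bic/4AP, against 0.553, 0.246 and 0.423 untreated).

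With TTX, the peak nearest to Gm36904 again had the largest upward difference. The peak at the start of Scn2a, a voltage-gated sodium channel gene, had 0.376 with TTX and 0.228 untreated, and 0.376 and 0.297 over shared CpGs. Peaks nearest to Ppp4r2 and Gm52043 had 0.817 and 0.315 with TTX, against 0.685 and 0.187 untreated, and the second had 0.118 and 0.115 over shared CpGs. Lower with TTX were peaks nearest to Smarcc1, a chromatin remodeller gene (0.371 with TTX, 0.528 untreated), Gm31385 (0.127 and 0.246), 4930572K03Rik (0.526 and 0.636) and Wdr62 (0.0339 and 0.137). At Wdr62 the values over shared CpGs were 0.0339 with TTX and 0.0344 untreated. Several of these differences were smaller over shared CpGs than over each library's own CpGs.

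Genes that start in a constant peak had high RNA levels. Of 17801 measured genes with a listed start, 1171 (6.58%) started in a constant peak, and 1143 of these passed the filter on low values (1 RPKM or more in at least 3 libraries). RPKM is the read number divided by gene length and library size. The median RPKM of the 1171 genes was 24.1, 23.9 and 23.6 in the Bic/4AP libraries, 28.1, 28.2 and 28.4 in the TTX libraries and 25.7, 26.9 and 25.3 in the untreated libraries. Genes starting in another peak of the list had a median of 17.4 with Bic/4AP, 24.1 with TTX and 20.9 untreated, and those in the wide peaks of all 4 lists 34.0, 31.3 and 32.4. Genes starting in no peak had 0.908, 1.12 and 1.33. In untreated neurons 990 genes in constant peaks (84.5%) were at 10 RPKM or more, against 77.7% in other peaks and 28.8% in none. Genes with low RNA in spite of a constant peak were few, 28 of 1171 below the filter, and none was at 0 in every library.

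**Figure D3:**
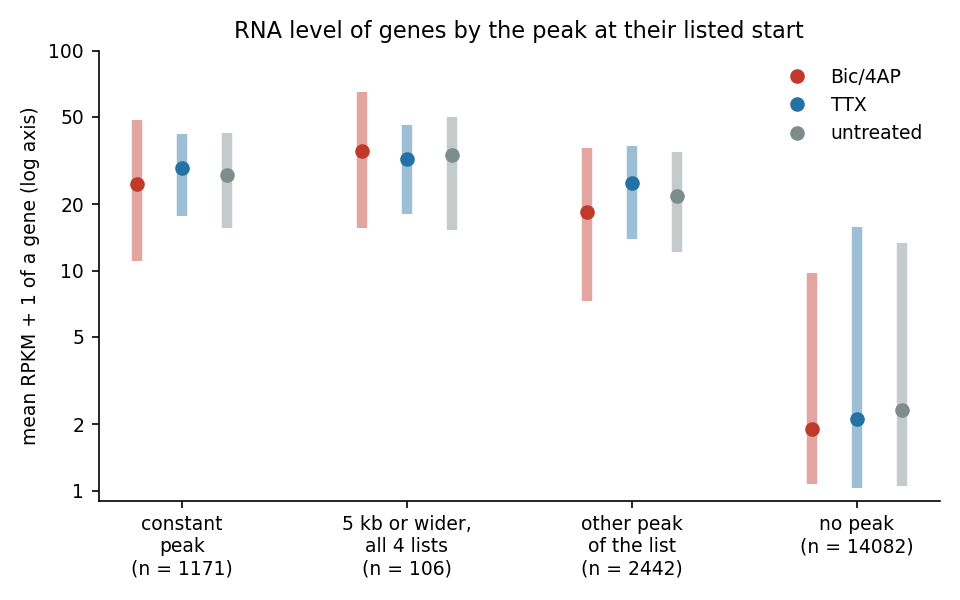
RNA level as mean RPKM + 1 of a gene over the 3 libraries of a treatment (log axis), by the peak at the listed start. Points are medians and bars interquartile ranges over genes, and the medians with a constant peak are 23.9 RPKM with Bic/4AP, 28.2 with TTX and 26.1 untreated, against 0.908, 1.12 and 1.33 with no peak.

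The first RNA comparison asks what activation changed at genes that carry the mark with and without it. Tests are limma on log2(RPKM + 1) over 14801 genes with Benjamini-Hochberg adjustment at 0.05, a scale that understates the change of low genes, and "rose" and "fell" mean passing this test. With Bic/4AP 853 of the 1143 genes changed, against 72.1% of all genes tested: 449 rose (39.3%, against 29.6% of all genes tested), 404 fell (35.3%, against 42.5%) and 290 passed in neither direction. By 2-fold or more, 19 rose (1.66%, against 3.31%) and 115 fell (10.1%, against 17.7%). The Bic/4AP and untreated libraries did not overlap for 860 genes (75.2%, against 71.3%). The median log2 change was 0.02 in these genes and -0.12 over all genes, a difference of 0.14 that became -0.06 after quantile and after loess normalization. Higher genes made up 52.6% of the calls on the deposited scale, 48.1% with quantile normalization and 42.3% with loess normalization, so the direction of the balance depends on scaling. Below, a relative log2 change is the change minus the median of all genes, -0.12 with Bic/4AP and 0.13 with TTX.

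Libraries also differed in ways not tied to the constant peaks. All 11 choroid plexus genes of a marker list fell in both comparisons, with a summed level of 33.2 to 38.9 RPKM with Bic/4AP, 14.0 to 18.9 with TTX and 452 to 678 untreated, and none of the 7 with a listed start lies in a peak. In bulk RNA, fewer cells of a type and less RNA per cell cannot be told apart. The part of this difference in the counts above was not tested, and all untreated libraries share it.

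RNA level went with direction. In the highest of 5 equal classes of tested genes by untreated RPKM, 504 genes with a constant peak had 61.9% risen and 22.0% fallen with Bic/4AP, and the other genes of that class 61.2% and 23.1%. In the fourth class the shares were 28.9% and 41.2% with a constant peak and 29.9% and 45.3% without, and in the middle class 17.8% and 50.5% against 18.5% and 56.8%. In the second class 10 of 95 genes with a constant peak rose and 57 fell, against 14.5% and 55.9% of the others, and in the lowest class 9 and 17 of 58, against 23.0% and 33.5%. This pattern turned with scaling: of the 504 genes 312 rose and 111 fell as deposited, 111 and 215 after quantile and 109 and 253 after loess normalization.

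**Figure D4:**
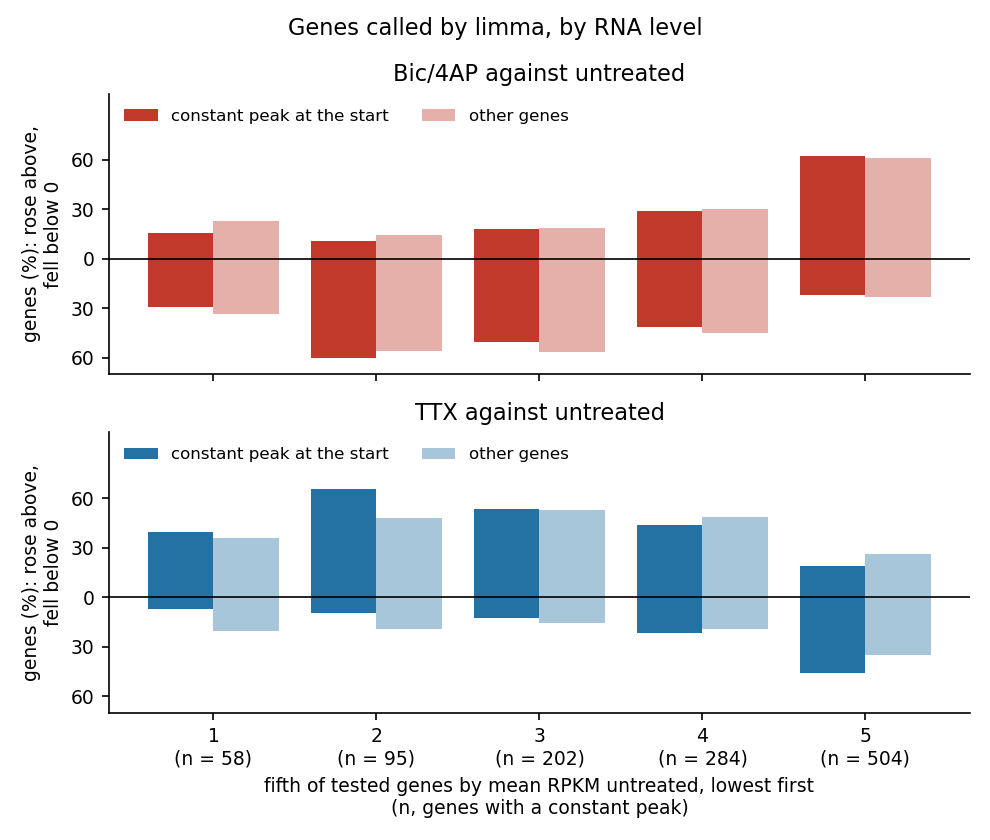
Share of genes (%) that rose (above 0) or fell (below 0) by limma at an adjusted p of 0.05, in 5 classes by untreated RPKM, for genes with a constant peak at the start and all other genes with a listed start. With Bic/4AP 61.9% of the constant-peak genes in the highest class rose, beside 61.2% of the others, and after quantile or loess normalization more of them fell than rose.

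The largest rises with Bic/4AP were these. Fndc9, which encodes a fibronectin type III domain protein, had 55.0, 58.1 and 64.2 RPKM with Bic/4AP, 8.53, 9.58 and 7.94 with TTX and 3.37, 4.87 and 2.16 untreated. Every Bic/4AP library was above every other library (log2 change 3.79 ± 0.18 SE, relative 3.92, limma Benjamini-Hochberg adjusted p = 8.67e-09). Its peak (chr11:46234135-46236695) is in both H3K4me1 lists and had methylation of 0.430 with Bic/4AP, 0.433 with TTX and 0.484 untreated, and its window, printed above, holds few CpGs. Fbxo33, an F-box gene known as a rapid activity gene, had 68.7, 72.5 and 78.9 RPKM with Bic/4AP and 20.3, 22.0 and 21.5 untreated (log2 change 1.74 ± 0.06, adjusted p = 2.37e-09). The others were Gpr19, an orphan receptor gene (43.1 ± 2.59 RPKM with Bic/4AP, 11.3 ± 1.72 untreated, SD, n = 3 each, log2 change 1.85), Ifrd1, a growth factor induced regulator gene (117 ± 11.1 and 35.8 ± 1.22, 1.67), B3galt2, a galactosyltransferase gene (64.7 ± 3.10 and 20.1 ± 2.70, 1.64), and Gm16062 (6.53 ± 1.70 and 1.28 ± 0.496, 1.72). The adjusted p of these 4 was 1.20e-05 or lower by limma.

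The largest falls were greater in size than the rises other than that of Fndc9. Plekhg5, which encodes an activator of the GTPase RhoA, had 7.37, 8.79 and 6.43 RPKM with Bic/4AP, 19.9, 18.4 and 17.1 with TTX and 70.8, 52.3 and 77.2 untreated. The groups did not overlap, with TTX between the other 2 (log2 change with Bic/4AP -2.98 ± 0.13, adjusted p = 7.61e-09 by limma). Cc2d1b, an endosomal sorting gene, averaged 1.06 ± 0.125 RPKM with Bic/4AP and 19.4 ± 2.86 untreated (log2 change -3.29), and Klhl3, an adaptor gene of cullin 3 ubiquitin ligases, 3.23 ± 0.332 and 34.2 ± 6.69 (-3.04). Dennd6b, an exchange factor gene of Rab GTPases, averaged 2.32 ± 0.172 and 23.2 ± 3.99 (-2.85), Matk, a tyrosine kinase gene, 8.58 ± 0.977 and 64.0 ± 14.7 (-2.74), and Pagr1a, a subunit gene of a histone methyltransferase complex, 5.62 ± 0.914 and 42.5 ± 7.89 (-2.71). Methylation of the 6 peaks ranged from 0.00956 at Dennd6b to 0.298 at Matk with Bic/4AP, and from 0.00591 at Pagr1a to 0.270 at Matk untreated.

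The second comparison asks what silencing with TTX changed. Of the 1143 genes 744 changed, against 64.1% of all genes tested: 414 rose (36.2%, against 40.6% of all genes tested), 330 fell (28.9%, against 23.5%) and 399 passed in neither direction by limma. By 2-fold or more, 48 rose (4.20%, against 6.09%) and 17 fell (1.49%, against 6.58%), and the libraries did not overlap for 801 (70.1%, against 69.6%). The median log2 change was 0.05, against 0.13 over all genes. Higher genes made up 55.6% of the calls on the deposited scale, 45.2% with quantile normalization and 41.5% with loess normalization. In the highest level class 19.2% of the genes with a constant peak rose and 45.6% fell, against 26.0% and 34.9% of the others. More of the 504 fell than rose under quantile (277 and 136) and loess normalization (265 and 128) too. The lowest, second and middle classes leaned the other way on the deposited scale. In the lowest class 39.7% rose and 6.90% fell, against 35.8% and 20.7% of the others. The shares were 65.3% and 9.47% in the second class, against 48.0% and 19.5%. In the middle class they were 53.5% and 12.4%, against 52.8% and 15.4%. In the fourth class 43.7% rose, against 48.8% of the others, and 21.8% fell, slightly more than of the others. Both comparisons share the untreated libraries.

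The 6 largest rises with TTX were of genes at low to middle level. Tpgs1, a subunit gene of tubulin polyglutamylase, had 34.5, 33.5 and 34.9 RPKM with TTX, 7.03, 8.90 and 8.58 with Bic/4AP and 10.6, 11.0 and 10.3 untreated. The TTX libraries stood above all others (log2 change 1.60 ± 0.09, relative 1.47, adjusted p = 1.07e-07 by limma). Snrnp35, a minor spliceosome gene, averaged 16.3 ± 0.537 RPKM with TTX and 4.70 ± 1.18 untreated (1.63), Zfp428, a zinc finger gene, 25.1 ± 0.765 and 7.25 ± 2.63 (1.71), and Bola1, a mitochondrial iron-sulfur gene, 24.6 ± 0.502 and 7.39 ± 0.711 (1.61). Gpr135, an orphan receptor gene, ranged from 11.7 to 12.5 RPKM with TTX and from 1.90 to 4.45 untreated (1.78), and Neurl2, a ubiquitin ligase adaptor gene, 8.99 ± 0.588 and 1.92 ± 0.906 (1.82).

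Of the 6 largest falls with TTX, all were lower with Bic/4AP as well. Meg3, an imprinted long noncoding RNA expressed from the maternal copy, had 32.4, 23.1 and 33.3 RPKM with TTX, 24.7, 28.2 and 40.2 with Bic/4AP and 98.0, 70.8 and 104 untreated. Both treated groups lay wholly below the untreated libraries (log2 change -1.59 ± 0.19 with TTX, adjusted p = 2.41e-05, and -1.53 ± 0.19 with Bic/4AP, adjusted p = 1.44e-05, by limma). Its peak had methylation of 0.415 with Bic/4AP, 0.457 with TTX and 0.478 untreated. Ryr2, a calcium release channel gene, averaged 21.3 ± 0.668 RPKM with TTX and 57.4 ± 10.0 untreated (log2 change -1.38), and Zfhx2, a zinc finger homeobox gene, 5.19 ± 0.518 and 20.5 ± 3.62 (-1.78). Plekhg5 (-1.78), Dennd6b (-1.53) and Cc2d1b (-1.40) were the others. Choroid plexus RNA, given above, was high in the same untreated libraries, and its part in these falls was not tested.

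**Figure D5:**
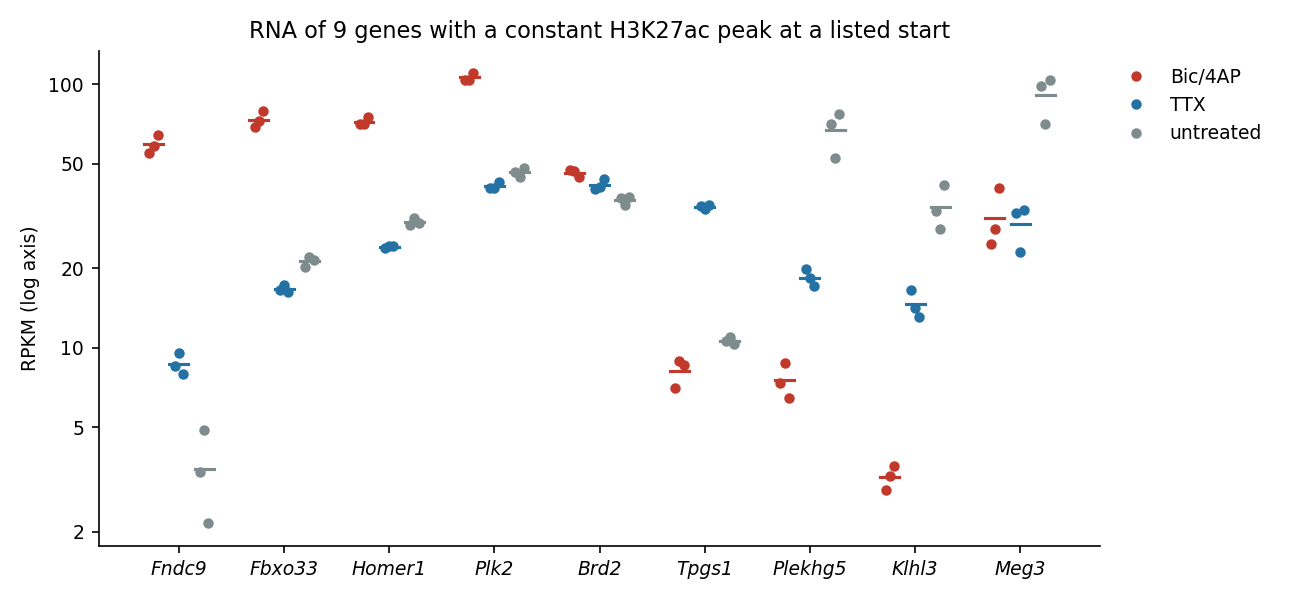
RPKM (log axis) of 9 genes with a constant peak at a listed start in each library (points) with the group mean (line), for Bic/4AP, TTX and untreated. Fndc9, Fbxo33, Homer1 and Plk2 are highest with Bic/4AP, Tpgs1 with TTX, and Plekhg5, Klhl3 and Meg3 untreated.

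Rapid activity genes are the textbook response to firing. Of 25 such genes with a listed start, 3 started in a constant peak, 5 in another peak of the list and 17 in none. Of all measured genes with a listed start, 6.58% started in a constant peak and 20.9% in any peak of the list. The 3 were Homer1, Fbxo33 and Per1, and all rose with Bic/4AP, also under both other scalings, as did 27 of the 30 genes of the whole list. Homer1, a postsynaptic scaffold gene, had 70.7, 70.6 and 75.0 RPKM with Bic/4AP, 23.8, 24.3 and 24.3 with TTX and 29.2, 31.1 and 29.8 untreated (log2 change with Bic/4AP 1.23 ± 0.05, adjusted p = 4.08e-09, and with TTX -0.30 ± 0.05, adjusted p = 0.000207, by limma). Per1, a clock gene, had 35.7, 39.4 and 36.0 with Bic/4AP and 19.2, 21.7 and 21.9 untreated (0.79 ± 0.07, adjusted p = 5.26e-07), and its fall with TTX (-0.18) did not pass without any 1 of the TTX libraries or without untreated library 2 or 3. Several members without a peak on the start lay close to one. Npas4 started 2 bp and Nr4a2 358 bp from the nearest peak of the list, and 116040 and 7697 bp from the nearest constant peak. Fos lay 36120 bp from a constant peak and 11737 bp from any, and Fosb 22614 and 9441 bp.

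Of 13 late activity genes with a listed start, Plk2 and Dusp6 started in a constant peak, beside 6.58% of all measured genes with a listed start. Both rose with Bic/4AP, and in the whole list 19 of 20 rose, against 29.6% of all genes tested. Plk2, a kinase gene of synaptic scaling, had 104, 104 and 110 RPKM with Bic/4AP and 46.4, 44.4 and 48.1 untreated (log2 change 1.18 ± 0.05, adjusted p = 7.18e-09 by limma), and its fall with TTX (-0.17) was lost without TTX library 1 or 2 or untreated library 3. Dusp6, a MAP kinase phosphatase gene, had 56.4, 57.8 and 61.6 with Bic/4AP, 27.8, 27.4 and 28.7 with TTX and 16.9, 21.3 and 19.1 untreated. It rose in both comparisons (1.58 ± 0.07, adjusted p = 9.05e-09, and 0.54 ± 0.07, adjusted p = 6.91e-05, by limma). Bdnf, of the same list, started in a peak of 5000 bp or wider of all 4 lists, outside the constant set.

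Synapse genes carried constant peaks at starts and inside their bodies. Of 17 excitatory synapse genes with a listed start, 7 started in a constant peak. Of these 3 rose and 2 fell with Bic/4AP (29.6% and 42.5% of all genes tested), or 2 and 4 after quantile and after loess normalization, and 1 rose and 3 fell with TTX (40.6% and 23.5% of all), or 0 and 5 under each other scaling. Dlg2 was at 91.6 ± 1.04 RPKM with Bic/4AP and 65.3 ± 4.43 untreated (log2 change 0.48, adjusted p = 2.25e-05 by limma), a call lost with the sign turned after quantile (-0.01) and loess normalization (-0.03). Nlgn1, an adhesion gene, fell with TTX to 35.0 ± 0.740 against 46.5 ± 0.851 untreated (-0.40, adjusted p = 2.54e-05 by limma), and Dlg4, a scaffold gene, was at 54.9 ± 3.14 with TTX and 57.2 ± 5.11 untreated (-0.06, adjusted p = 0.467). In this list 6 genes held 8 distal constant peaks in their bodies, 2 each in Dlg2 and Grm5. Of 10 inhibitory synapse genes, 4 started in a constant peak. With Bic/4AP the GABA-A receptor subunit gene Gabrb2 rose (76.1 ± 2.31 and 54.9 ± 2.33 RPKM untreated, log2 change 0.46), a call lost after quantile (0.01) and loess normalization (0.06). Its relative Gabrb1 fell (42.3 ± 1.79 and 47.1 ± 1.60, -0.15), a call lost without Bic/4AP library 1 or 3 or untreated library 1. With TTX both fell (-0.31 and -0.17, beside 23.5% of all genes tested), a call lost for Gabrb1 without TTX library 1 or untreated library 1.

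Genes that write, erase or read the marks measured here were present too. Of 17 histone acetylation genes with a listed start 6 began in a constant peak, of which 1 rose and 3 fell with Bic/4AP (29.6% and 42.5% of all genes tested), or 0 and 4 after loess normalization, and 3 rose and 2 fell with TTX (40.6% and 23.5% of all). Crebbp, which encodes CBP, had 21.8, 22.4 and 22.5 RPKM with Bic/4AP, 24.6, 26.5 and 25.1 with TTX and 32.1, 31.9 and 34.7 untreated. It was lower in every treated library (log2 change -0.54 ± 0.05, adjusted p = 2.94e-06, and -0.36 ± 0.05, adjusted p = 0.000143, by limma). Brd2 had 47.1, 46.7 and 44.5 with Bic/4AP and 37.1, 34.7 and 37.4 untreated (0.33 ± 0.05, adjusted p = 0.000140, lost after loess normalization at 0.10), and Hdac2, a deacetylase gene, averaged 44.0 ± 1.06 and 43.5 ± 2.65 (0.02, adjusted p = 0.775), but fell in the quantile (-0.21) and loess (-0.26) normalized fits. Tet2, a demethylating dioxygenase gene, was the 1 of 10 DNA methylation genes in a constant peak. It had 32.5, 32.6 and 32.2 RPKM with Bic/4AP, 17.7, 18.5 and 17.7 with TTX and 22.2, 24.4 and 24.2 untreated, a rise and a fall with no overlap of groups (0.45 ± 0.05, adjusted p = 1.51e-05, and -0.37 ± 0.05, adjusted p = 0.000119, by limma), and its body holds 2 distal constant peaks. Of 20 neuronal transcription factor genes, Mef2a started in a constant peak and Mef2c held 3 distal ones. Mef2a was at 50.5 ± 1.61 with Bic/4AP and 44.9 ± 0.962 untreated (0.17 as deposited, called lower at -0.13 after quantile and -0.12 after loess normalization).

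Lists of genes used by every cell were counted beside a share of 6.58%, that of all measured genes with a listed start. This share covers genes of every RNA level. In the highest level class, 504 genes with a constant peak stood beside 1806 other genes with a listed start. The part of RNA level in the shares of these lists was not tested. Of 20 splicing genes 13 started in a constant peak, and 12 of them fell and 1 rose with TTX, against 23.5% and 40.6% of all genes tested. After quantile and loess normalization 12 fell and 0 rose. Of the whole list of 20 splicing genes, 16 fell and 2 rose with TTX as deposited. Among all genes with a constant peak in the highest level class, 45.6% fell and 19.2% rose with TTX. Hnrnpu, an RNA-binding gene, had 53.6, 54.9 and 60.4 RPKM with TTX and 87.3, 67.9 and 89.0 untreated (log2 change -0.52 ± 0.09, adjusted p = 0.000425 by limma), and Srsf2, a serine-arginine splicing factor gene, 41.7, 41.3 and 44.0 and 57.7, 48.5 and 62.2 (-0.39 ± 0.08, adjusted p = 0.000846). With Bic/4AP 4 of the 13 rose and 5 fell (29.6% and 42.5% of all genes tested), or 1 and 8 after quantile and 3 and 8 after loess normalization. Of 59 ribosomal protein genes with a listed start 7 began in a constant peak, and 6 rose with Bic/4AP and 0 fell (29.6% and 42.5% of all), or 5 and 1 under each other scaling. With TTX 5 rose and 0 fell under each scaling (40.6% and 23.5% of all as deposited). Of 77 ribosomal protein genes tested in the whole list, 65 rose and 1 fell with Bic/4AP, and 49 and 3 with TTX, as deposited. Rps26 was at 80.2 ± 9.07 with Bic/4AP and 50.8 ± 4.39 untreated (0.65), and Rps9 at 56.8 ± 3.82 with TTX and 38.6 ± 4.96 untreated (0.55), and processed copies of such genes can share their reads. Of 19 proteasome genes 5 started in a constant peak, and 3 rose and 1 fell with Bic/4AP (29.6% and 42.5% of all), or 0 and 1 after quantile and 1 and 1 after loess normalization. In the whole list of 24 proteasome genes, 16 rose and 5 fell with Bic/4AP as deposited. Psma3 was at 55.4 ± 0.443 with Bic/4AP and 41.3 ± 3.72 untreated (0.42, lost after quantile normalization at 0.11). All 4 housekeeping genes in constant peaks, of 12, rose with Bic/4AP as deposited (29.6% of all), but after loess normalization 1 rose and 2 fell. In the whole list of 15 housekeeping genes, 13 rose and 1 fell with Bic/4AP as deposited. Ppia, a peptidyl-prolyl isomerase gene, stayed higher (0.80, 126 ± 4.82 and 71.7 ± 6.53 RPKM untreated), while Eef1a1, a translation elongation gene, turned to -0.25 after loess normalization (170 ± 4.63 and 116 ± 17.2 as deposited, 0.56).

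Of the marker lists, the neuron markers had the highest summed RNA level in each group. Of 8 general neuron markers with a listed start, 4 started in a constant peak and 1 (Dcx) in another peak of the list. The other 3 (Map2, Rbfox3 and Syn1) started in none. Of markers of astrocytes (9 with a listed start), oligodendrocyte lineage (4), microglia (6), vascular and mural cells (7) and progenitors (7), none started in any peak of the list. The summed level of the neuron markers was 1229 to 1252 RPKM with Bic/4AP, 742 to 823 with TTX and 775 to 913 untreated, beside 252 to 287, 261 to 282 and 262 to 314 for astrocyte markers. The choroid plexus markers, given above, summed to 452 to 678 RPKM untreated, more than the astrocyte markers in those libraries.

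Methylation, position and motifs were set beside RNA change as well. Among genes whose peak had a fraction of 0.1 or higher untreated, 56 of 120 rose and 36 fell with Bic/4AP, against 38.4% and 36.0% of the 1023 with a lower fraction and 29.6% and 42.5% of all genes tested. Before the filter, the median untreated level was 35.3 RPKM in the first group (125 genes) and 25.4 in the second (1046 genes). The part of RNA level in these counts was not tested, and they were not repeated under other scalings. Genes nearest to a distal constant peak, and with no start of their own in a constant peak, were 310 with measured RNA. They had a median of 8.73 RPKM with Bic/4AP, 14.4 with TTX and 13.0 untreated. Of the 242 tested, 87 rose (36.0%) and 92 fell (38.0%) with Bic/4AP, against 29.6% and 42.5% of all. Some of them start in another peak of the list. The 221 with no peak at a listed start had a median of 7.74 RPKM untreated. Of the 159 tested among these, 30.2% rose and 41.5% fell with Bic/4AP, near the shares of all genes. Of 66 tested genes with a CRE in the window and a constant peak, 31 rose and 18 fell with Bic/4AP, 28 and 16 after quantile and 27 and 20 after loess normalization. All 399 tested genes with a CRE gave 159 and 139. Of all genes tested with a constant peak 39.3% rose and 35.3% fell with Bic/4AP, against 29.6% and 42.5% of all. With TTX 31 of the same 66 genes rose and 17 fell, against 40.6% and 23.5% of all genes tested. Those counts were 25 and 21 after quantile and 22 and 22 after loess normalization. Of 776 tested genes with a GC box and a constant peak, 311 rose and 274 fell with Bic/4AP. Of the 8 tested with a MEF2 motif and a constant peak, 7 rose (Slc20a1, Ywhah, Gabrb2, Ckb, Zbed3, Dleu2 and Srsf3) and Ccdc107 fell, genes named after their values were seen. After quantile normalization 4 rose and 1 fell, after loess normalization 4 rose and 3 fell, and all 22 tested genes with that motif gave 11 and 5. With TTX 2 of the 8 rose and 3 fell.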

How the data were processed

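The members and gene lists were chosen with earlier results of these data known. Sample groups come from the labels. The submitters' processing notes name mm10 as the build, MACS 1.4.1, Bowtie2 2.2.4, TopHat and SAMtools 0.1.19. Per the labels' protocols, RNA was poly(A)-selected, ChIP used mouse monoclonal antibodies against H3K27ac or H3K4me1, and bisulfite libraries were made by tagging adaptors after conversion. Use of strand and of the input is not stated, and reads of overlapping genes cannot be told apart. The deposited peak lists give the authors' score for each peak, 50 or higher, called per sample. The deposited methylation files give a fraction from 0 to 1 per CpG, without coverage, so no counting interval can be had. The deposited RNA values are RPKM, made by the authors from read numbers, gene length and library size. All 19592 genes above 0 in 3 or more libraries came out as whole reads within 0.08 of a read.

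Here, peaks were overlapped by 1 bp with pandas 2.3.3. Gene starts came from RefSeq promoter windows of GRCm38.p6, which hold no start for 4395 of 21887 protein-coding genes and none on chromosome 18, where 71 members lie. Of 24058 measured genes, 22550 matched a symbol and 1287 a synonym. CpG values were averaged per peak with 5 or more CpGs in every library. Because the values are RPKM, limma 3.58.1 (R 4.3.3) with an intensity trend was fitted to log2(RPKM + 1) of all 9 libraries by treatment, for genes at 1 RPKM or more in 3 libraries, with Benjamini-Hochberg adjustment at 0.05. The script was tested on simulated data. No replicate block is in the fit, since replicate numbers are only library numbers in the labels. Same-numbered libraries did not deviate together (correlations -0.17 to 0.04). Alternatives are the overlap, score, width and start distance, the CpG minimum, the pseudocount, the filter, quantile and loess normalization, a replicate block and left-out libraries. The split into near and distal peaks and the ends of genes without a listed start were added after the data were seen. Named genes are those of the 8 highest-ranked peaks, the 6 largest changes per direction with 5 RPKM or more in a group and no overlap, up to 3 per list by untreated RPKM, the 5 highest and lowest peaks by methylation and the 4 largest differences per direction, with 10 or more CpGs.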

Additional observations from a re-analysis of the deposited data

How the results depend on the processing

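The count of 2184 constant peaks became 174 when each other list had to cover 0.5 of the peak's length, 574 and 56 with a score of 100 or 200 in every list, and 2196 to 5407 when 1 list was dropped as a requirement, the highest without the first untreated list. The share with a start was 58.7% within 1000 bp and 60.3% within 2500 bp. The share in both H3K4me1 lists was 0.0916% with 0.5 of the length covered, and 13.6% in either list. Pooled over CpGs, methylation was 0.0924 with Bic/4AP, 0.0944 with TTX and 0.0931 untreated, because CpG-rich starts weigh more. The mean over peaks, 0.186 with Bic/4AP, 0.188 with TTX and 0.187 untreated, became 0.124, 0.125 and 0.125 at a score of 100 in every list. That score left 166 genes that rose and 137 that fell with Bic/4AP, and 127 and 136 with TTX. Leaving out 1 library gave 425 to 478 genes that rose and 385 to 416 that fell with Bic/4AP, and 362 to 438 and 265 to 345 with TTX. With a replicate block, where the numbers do not pair the libraries, 447 rose and 400 fell with Bic/4AP, and 408 and 322 with TTX.

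Quantile and loess normalization turned the sign of the Bic/4AP change of Dlg2 (-0.01 and -0.03), Dlg4 (-0.32 and -0.38), Hdac2 (-0.21 and -0.26), Hnrnpu (-0.29 and -0.36), Mef2a (-0.13 and -0.12), Nlgn1 (-0.24 and -0.22), Rps9 (-0.06 and -0.16) and Srsf2 (-0.26 and -0.27), and of the TTX change of Eef1a1 (0.11 and 0.06) and Ppp1r10 (-0.00 and -0.09). Loess alone turned that of Eef1a1 with Bic/4AP (-0.25), and quantile alone those of Dlg4 (0.01) and Ifrd1 (-0.04) with TTX. Changes near 0 also turned with 1 library left out: with Bic/4AP those of Dlg4 (-0.04 to 0.08), Hdac2 (-0.01 to 0.07) and Srsf2 (-0.00 to 0.17) without untreated library 2, and with TTX that of Rps26 (-0.01 to 0.11) without TTX library 3 or untreated library 3 (-0.00). The cause was not tested. Of 1066 alternative values of named genes, 994 kept direction and side of the threshold, 30 fell below it, 14 passed it and 28 turned. Depth per CpG is unknown, and methylation and H3K4me1 have no replicate of treatment.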
